A study of Homo sapiens with 11 samples.

Results

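Thymosins, actins and the main proteins that bind actin monomers were followed in T-REx-293 cells depleted of Tat-SF1. T-REx-293 is a line derived from human embryonic kidney HEK293 cells in which tetracycline switches on expression from a plasmid. The group held 10 genes, taken by symbol: the thymosins TMSB10 and TMSB4X, the actins ACTB, ACTG1 and ACTA2, the profilins PFN1 and PFN2, and the cofilin family members CFL1, CFL2 and DSTN. Probe sets carrying only the symbol of one of them were used, 111 of the 355799 with a single symbol. A gene value was obtained for 9 of the 10, among 14496 genes. The genes were proposed after the comparison of knockdown with control arrays was known, and TMSB10 and ACTA2 were among the genes already named from it. That comparison is therefore described here. Where a p-value of a member from it is printed, it belongs to the description and is no test of the member, since the choice used the same values.

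Actin cycles between free monomers and filaments. Beta-thymosins sequester monomers, profilins exchange their nucleotide and deliver them to growing filament ends, and cofilins with destrin sever and take apart old filaments. ACTB and ACTG1 encode the cytoplasmic actins found in nearly every cell, while ACTA2 encodes the smooth muscle actin that is also a marker of myofibroblasts. Many actin genes are switched on by serum response factor, whose cofactors are themselves held back by free actin. Tat-SF1, encoded by HTATSF1, helps RNA polymerase elongate and associates with the U2 particle of the splicing machinery.

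All cells stably carried a GFP plasmid and received 2.5 µg/mL tetracycline for 72 h. Under tetracycline they expressed an empty vector (2 arrays), an shRNA against GFP (3 arrays), or one of the Tat-SF1 shRNAs, called shRNA A and shRNA B here (3 arrays each). The empty vector and the GFP shRNA formed the control group of 5 arrays and the Tat-SF1 shRNAs the knockdown group of 6. Whether each line was a clone or a pool is not given in the sources used here, and the replicates are described only as biological ones, so the spread covers whatever those samples differed by. RNA was DNase-treated total RNA on Affymetrix human exon arrays. Values are on a log2 scale, and a gene value is the median of the gene's used probe sets on an array. In bulk RNA, fewer cells with a transcript and less of it per cell cannot be told apart.

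The targeted gene HTATSF1 had a mean of 8.50 ± 0.115 (SD, n = 5) in controls and 8.21 ± 0.0567 (SD, n = 6) in knockdown arrays. Correlations between arrays over all probe sets lay between 0.941 and 0.962. The 3000 brightest genes of an array averaged 9.32 ± 0.0412 (SD, n = 5) in controls and 9.26 ± 0.0447 (SD, n = 6) with knockdown. The brightest array, GFP shRNA replicate 1, and the dimmest, shRNA B replicate 1, were also the ends of the first principal component. The names of 4 knockdown arrays, shRNA A replicate 3 and all shRNA B arrays, and of no control array end in an extra suffix of unknown meaning. The part of brightness and of the suffix in the values below was not tested, and values without the suffixed arrays are given beside the gene values that they move most or turn in sign. The line's markers were measured for 6 of 6 genes, with VIM highest at 10.14 and NEFM lowest at 7.98. Smooth muscle markers other than ACTA2 averaged 8.17 in controls and 8.21 with knockdown over 5 of 6 genes, with array means of 8.14 to 8.22 and 8.14 to 8.25. MYH11, the smooth muscle myosin, was the lowest of them at 7.95, close to the table's median of 7.91. ACTG2 was the highest, at 8.71 in controls and 8.85 with knockdown.

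TMSB10, which encodes thymosin beta-10, had the lowest knockdown minus control difference of all 14496 genes. Its gene value was 10.57 and 10.46 with the empty vector and 10.55, 10.34 and 10.27 with the GFP shRNA. It was 10.22, 9.97 and 9.81 with shRNA A and 9.63, 9.82 and 10.09 with shRNA B. Every knockdown array was below every control array, and the nearest, shRNA A replicate 1, was just under GFP shRNA replicate 3. The means were 10.44 ± 0.132 (SD, n = 5) and 9.92 ± 0.214 (SD, n = 6), a difference of -0.51 ± 0.098 (SE), or 1.43-fold lower on this scale. Without the suffixed arrays, that is against 2 shRNA A arrays only, the difference was -0.34.

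ACTA2, the smooth muscle actin, was the other member whose groups did not overlap. Its gene value was 8.77 and 8.74 with the empty vector and 8.98, 8.74 and 8.65 with the GFP shRNA. It was 8.38, 8.53 and 8.54 with shRNA A and 8.27, 8.42 and 8.46 with shRNA B. The means were 8.78 ± 0.125 (SD, n = 5) and 8.43 ± 0.102 (SD, n = 6), a difference of -0.34 ± 0.063 (SE), or 1.27-fold lower. With the floor on dim probe sets raised by 0.5, which keeps fewer probe sets, the difference was -0.15. With the same probe sets and signal counted above the array median, a change of scale, it was -0.67. The choice rested on the contrast of knockdown with control, which was refitted here by limma. In this refit 2 of the 9 members with a value, TMSB10 and ACTA2, had an adjusted p of 0.0487. Nothing is read from that count. In the same fit 0.193% of all genes were called lower and 0.0345% higher. No other member was without overlap, where 2.02% of all genes did not overlap and were lower. With each of the 11 arrays left out in turn, TMSB10 stayed under the threshold only without shRNA A replicate 1. Its adjusted p by limma ran from 0.0445 to 0.122 over these fits. ACTA2 stayed under it only without empty vector replicate 2 (limma adjusted p 0.0417 to 0.117). Without both ends of the first component the differences were -0.43 for TMSB10 and -0.26 for ACTA2.

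**Figure D1:**
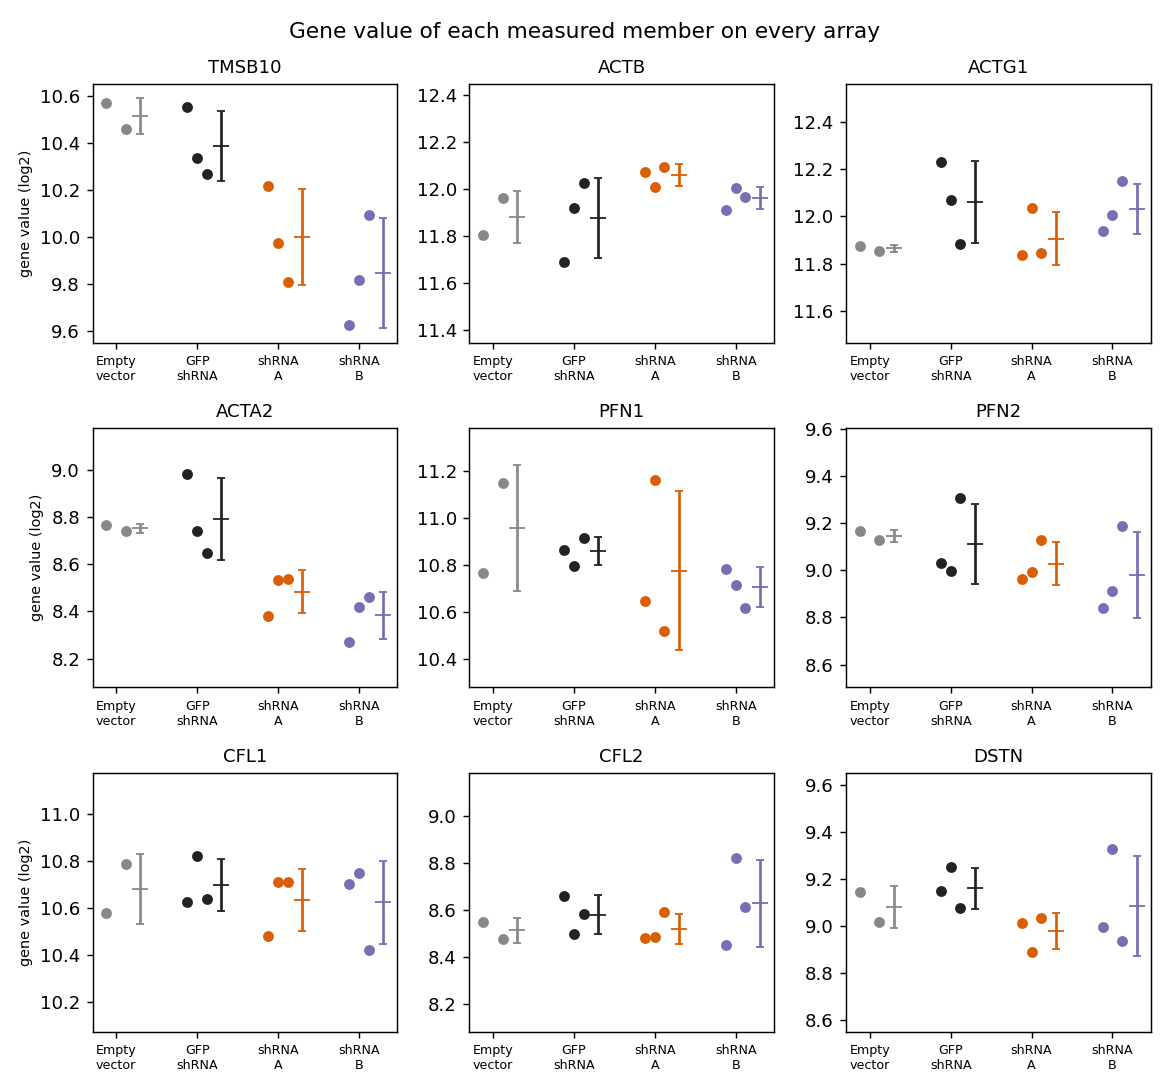
Gene values (log2, vertical axis) of the 9 measured members on the 11 arrays, grouped by construct; each point is an array, and beside the points a dash with bars gives the construct mean and SD. TMSB10 and ACTA2 have every knockdown array below every control array, while the groups of the other 7 overlap.

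The promoters of these 2 genes are shown because they were the members whose groups did not overlap. RefSeq windows on GRCh38.p14, from 250 bases before a start to 50 bases from it, were listed for 8 of the 10 members, 10 windows in all. ACTB and PFN2 had no window, so their promoters were not searched. Capitals mark the string TATATAA, which resembles a TATA box, searched for on both strands and chosen after the windows had been seen. The windows, 5′ to 3′ on the strand of the gene, are TMSB10 at chr2:84905406-84905705 (plus strand), and for ACTA2 a window at chr10:88952724-88953023 and one at chr10:88991288-88991587 (minus strand).
TMSB10: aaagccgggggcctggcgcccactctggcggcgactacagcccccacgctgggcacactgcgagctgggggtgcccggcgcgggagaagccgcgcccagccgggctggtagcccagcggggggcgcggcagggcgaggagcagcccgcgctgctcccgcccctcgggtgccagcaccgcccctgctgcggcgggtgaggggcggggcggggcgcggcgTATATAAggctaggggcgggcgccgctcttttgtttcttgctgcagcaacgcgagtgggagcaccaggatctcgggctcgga
ACTA2, first window: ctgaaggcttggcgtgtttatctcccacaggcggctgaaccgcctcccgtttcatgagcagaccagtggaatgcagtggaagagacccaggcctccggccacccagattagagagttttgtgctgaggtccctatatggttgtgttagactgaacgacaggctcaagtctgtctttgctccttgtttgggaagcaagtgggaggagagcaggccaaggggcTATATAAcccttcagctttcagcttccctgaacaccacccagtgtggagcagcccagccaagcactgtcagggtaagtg
ACTA2, second window: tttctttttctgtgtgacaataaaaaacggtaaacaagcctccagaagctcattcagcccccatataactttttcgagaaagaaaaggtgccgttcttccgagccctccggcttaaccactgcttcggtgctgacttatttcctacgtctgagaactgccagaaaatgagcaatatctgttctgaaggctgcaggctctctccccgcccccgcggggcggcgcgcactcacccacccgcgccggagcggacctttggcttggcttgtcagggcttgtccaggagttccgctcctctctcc
Counted from the start site, TATATAA begins at -32 in TMSB10 and at -29 in the first ACTA2 window, and is not in the second. It was in 2 of the 10 member windows and in 2.57% of all 35116 windows. The CArG box, a motif known for serum response factor, was searched by its exact consensus, with no mismatch allowed, and was in 1 member window, that of ACTG1, and in 1.29% of all. Near matches were not counted, such as ccctatatgg in the first ACTA2 window, 1 base off the consensus. A window without a match may therefore still hold a site. The string GGGCGG, a GC box, was in 9 of the 10 member windows and in 45% of all. Each is a match of letters only.

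For both cytoplasmic actins the control and knockdown arrays overlapped. ACTB was 11.80 and 11.96 with the empty vector, 11.69, 11.92 and 12.02 with the GFP shRNA, 12.07, 12.01 and 12.09 with shRNA A, and 11.91, 12.00 and 11.97 with shRNA B. The shRNA A arrays were near the top and GFP shRNA replicate 1 was lowest, and the groups overlapped, with a difference of 0.13 ± 0.073 (SE). As the mean of probe sets the ACTB difference was 0.05. ACTG1 was 11.87 and 11.85 with the empty vector, 12.23, 12.07 and 11.88 with the GFP shRNA, 11.84, 12.03 and 11.85 with shRNA A, and 11.94, 12.01 and 12.15 with shRNA B. Its highest array was a control and its lowest a knockdown array, and the difference was -0.01 ± 0.085 (SE), lower in 15 of 23 other settings and reaching 0.14 with the raised floor. Without the suffixed arrays it was -0.05.

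TMSB4X, the other major beta-thymosin, had no gene value. Its 4 probe sets with a single symbol had control means of 7.81, 7.88, 8.30 and 7.90, at the level of the table's median or little above, and the 8.30 probe set differed by 0.15. A further 11 probe sets carried its symbol together with those of TMSB4X-like copies, with control means of 7.92 to 8.68 and differences of -0.09 to 0.07. Thymosin, actin, profilin and cofilin genes have near-identical processed copies elsewhere in the genome, so their probe sets may take up signal from more than one locus.

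Both profilins had lower means with knockdown in the reported processing, with overlapping groups, and neither kept that sign in every setting. PFN1, the widespread profilin, was 10.77 and 11.15 with the empty vector, 10.86, 10.80 and 10.92 with the GFP shRNA, 10.65, 11.16 and 10.52 with shRNA A, and 10.79, 10.72 and 10.62 with shRNA B. Empty vector replicate 2 and shRNA A replicate 2 stood above the rest, and the difference was -0.16 ± 0.104 (SE). It was 0.006 without the suffixed arrays and 0.03 with the raised floor, and lower in 20 of 23 other settings. PFN2, the profilin prominent in neurons, was 9.17 and 9.13 with the empty vector, 9.03, 9.00 and 9.31 with the GFP shRNA, 8.96, 8.99 and 9.13 with shRNA A, and 8.84, 8.91 and 9.19 with shRNA B. The third arrays of the GFP shRNA, shRNA A and shRNA B were the highest of their constructs, and the difference was -0.12 ± 0.072 (SE). It was 0.07 with no filter on dim probe sets and lower in the other 22 settings.

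The filament-severing proteins differed by 0.10 or less in the reported processing and by more in some other settings. CFL1, the main non-muscle cofilin, was 10.58 and 10.78 with the empty vector, 10.63, 10.82 and 10.64 with the GFP shRNA, 10.48, 10.71 and 10.71 with shRNA A, and 10.70, 10.75 and 10.42 with shRNA B, a difference of -0.06 ± 0.080 (SE). That of CFL1 was -0.19 with no filter on dim probe sets, -0.11 as the mean of probe sets, -0.09 without the suffixed arrays and 0.02 after cyclic loess. CFL2, the cofilin of muscle, was 8.55 and 8.48 with the empty vector, 8.66, 8.50 and 8.58 with the GFP shRNA, 8.48, 8.48 and 8.59 with shRNA A, and 8.45, 8.82 and 8.61 with shRNA B, a difference of 0.02 ± 0.063 (SE). That of CFL2 was 0.15 with the raised floor and -0.07 without the suffixed arrays. DSTN, destrin, was 9.15 and 9.02 with the empty vector, 9.15, 9.25 and 9.08 with the GFP shRNA, 9.01, 8.89 and 9.04 with shRNA A, and 8.99, 9.33 and 8.94 with shRNA B, a difference of -0.10 ± 0.072 (SE). That of DSTN was -0.18 without the suffixed arrays and lower in all 23 other settings. In CFL2 and DSTN the highest gene value was that of shRNA B replicate 2. For DSTN it was the value of probe set 3878053. The mean of the DSTN probe sets on that array was 9.13, the lowest of the knockdown arrays. Together 7 of the 9 members had a lower mean with knockdown, where 67.3% of all genes did.

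Spread between arrays of the same construct sets how far these values can be read. The members' median within-construct SD was 0.134, against 0.061 over all genes. PFN1, at 0.215, and TMSB10, at 0.187, were at the 99.2 and 98.3 percentiles of all genes. By mean level they were at the 99.3 and 98.1 percentiles, and their spread was not compared with that of genes of like level.

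The Tat-SF1 shRNAs were compared with each other, a contrast that did not choose the members. None of the 9 had an adjusted p under 0.05, nor an unadjusted one, by limma, and the smallest adjusted p was 0.999. Over all genes 0% passed after adjustment and 4.49% before it. TMSB10 was 10.00 ± 0.205 (SD, n = 3) with shRNA A and 9.85 ± 0.235 (SD, n = 3) with shRNA B, a difference of -0.15 with a 95% interval of -0.43 to 0.13. Within the suffixed arrays alone, 1 of shRNA A against 3 of shRNA B, it was 0.04. ACTA2 was 8.48 and 8.38, a difference of -0.10 (-0.28 to 0.08). ACTB was lower on every shRNA B array than on every shRNA A array, at -0.10 (-0.31 to 0.12), a pattern that 5.57% of all genes showed in this direction and 4.97% in the other. ACTG1 differed by 0.13 (-0.10 to 0.36), PFN1 by -0.07 (-0.38 to 0.24) and PFN2 by -0.05 (-0.27 to 0.17). CFL1 differed by -0.01 (-0.25 to 0.23), CFL2 by 0.11 (-0.07 to 0.29) and DSTN by 0.11 (-0.10 to 0.32). Within the suffixed arrays alone PFN1 was at 0.18, ACTA2 at -0.16, PFN2 at -0.15, CFL1 at -0.09, CFL2 at 0.04 and DSTN at 0.05. ACTG1 was at -7.3e-05 with the raised floor. The intervals reach past 0.2 on at least one side for every member, so differences of that size were not excluded for any.

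The control constructs gave the same count. None of the 9 passed for the GFP shRNA against the empty vector, with adjusted p-values by limma of 0.947 to 0.998 and none under 0.05 unadjusted. Over all genes 0.0069% passed, and 4.48% before adjustment. ACTG1 was 11.86 ± 0.0143 (SD, n = 2) with the empty vector and 12.06 ± 0.174 (SD, n = 3) with the GFP shRNA, a difference of 0.20 (95% interval -0.06 to 0.45). Its GFP shRNA arrays were all above the empty vector arrays, as for 13.6% of all genes in that direction and 5.13% in the other. The ACTG1 gene value was the one of probe set 3773946 on every array but GFP shRNA replicate 2. As the mean of probe sets the difference was 0.05 ± 0.069 (SE). The constructs then overlapped, with empty vector replicate 2 at 11.20 and GFP shRNA replicate 3 at 11.19. TMSB10 differed by -0.13 (-0.44 to 0.19), and the other 7 by -0.10 to 0.08.

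**Figure D2:**
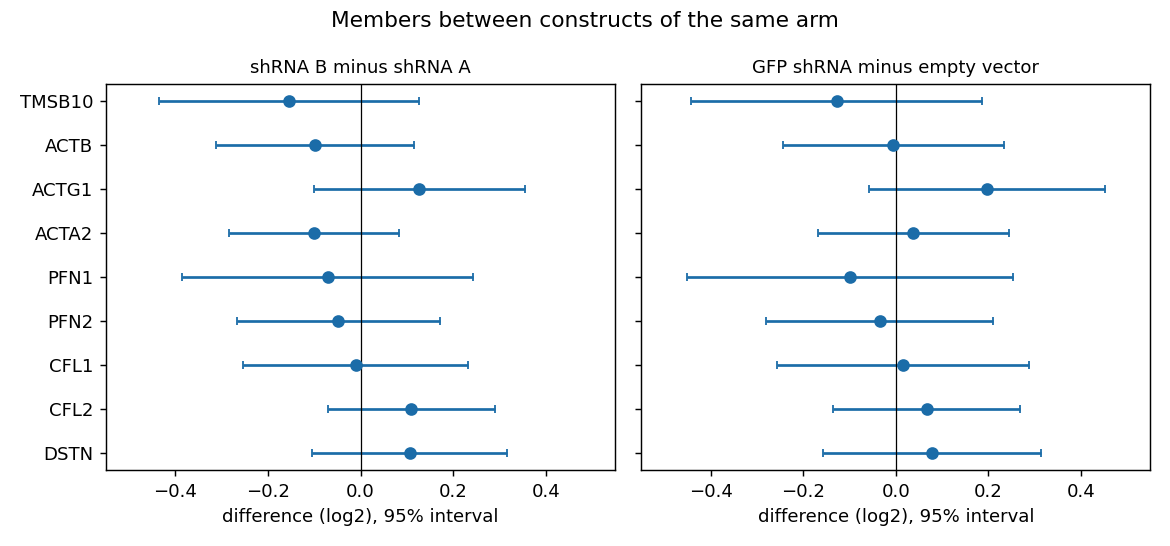
Differences in gene value (log2, horizontal axis) of the 9 members for shRNA B minus shRNA A and for the GFP shRNA minus the empty vector; points are limma estimates and bars 95% intervals. Every interval includes 0, with TMSB10 at -0.15 and -0.13.

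Single probe sets show what the gene values rest on. Of the 96 used, 62 (64.6%) had a lower mean with knockdown, where 61.6% of all used probe sets did. For 6 of them (6.25%) no knockdown array reached a control array from below, where 1.66% of all used probe sets were lower without overlap, and for none was the reverse true, against 0.202% of all. TMSB10 held 2 of the 6, ACTA2 held 3 and DSTN held 1, probe set 3878052 at -0.13. TMSB10 and ACTA2 had been named from this contrast beforehand, so nothing is read from the members' share beside that of all probe sets.

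All 5 probe sets of TMSB10 had lower means with knockdown, at -0.37, -0.51, -0.31, -0.45 and -0.24 in the order of their numbers. The gene value was that of probe set 2491292 on every array, the largest of these differences, and the mean of the 5 gave -0.38. Probe set 2491296 was picked for its order of the constructs. It had 11.24 and 11.25 in the empty vector arrays, 10.92, 10.94 and 10.97 with the GFP shRNA, 10.80, 10.75 and 10.62 with shRNA A, and 10.46, 10.46 and 10.56 with shRNA B. Here the 4 constructs formed separate steps with no overlap between neighbours, controls included. In each of the other TMSB10 probe sets some neighbouring constructs overlapped. How often such steps occur over all probe sets was not counted. With the mean of the 5 probe sets as the gene value, shRNA B minus shRNA A was -0.26 ± 0.077 (SE), with a limma p of 0.00439 before adjustment and 0.985 after it, so that the count of unadjusted p-values above holds for the median of probe sets only.

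All 10 probe sets of ACTA2 had lower means too, from -0.49 in 3299521 to -0.08 in 3299534, with a median of -0.22. Probe set 3299521 was 9.66 and 9.70 with the empty vector, 9.64, 9.63 and 9.69 with the GFP shRNA, 9.12, 9.29 and 9.46 with shRNA A, and 8.89, 9.21 and 9.09 with shRNA B. The controls lay between 9.63 and 9.70, and the knockdown arrays spread more widely below them. Probe sets 3299508, at -0.42, and 3299520, at -0.29, were also without overlap.

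ACTG1 held probe sets of both directions. The 3 with the lowest numbers had higher means with knockdown, by 0.49, 0.11 and 0.22, and the other 14 had lower means, by -0.21 to -0.01. The first, 3773934, was 9.37 and 8.94 with the empty vector, 9.64, 9.67 and 9.32 with the GFP shRNA, 9.84, 9.69 and 9.59 with shRNA A, and 9.74, 10.40 and 9.99 with shRNA B. Its groups overlapped, and the construct means ran from 9.15 with the empty vector through 9.54 and 9.70 to 10.04 with shRNA B.

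In the remaining genes the gene value could hide a mixture. ACTB had 9 probe sets higher and 4 lower, from -0.13 in 3036933 to 0.28 in 2457901, with a median of 0.03 against the 0.13 of its gene value. That value was the one of 2457901 on empty vector replicate 1, GFP shRNA replicates 1 and 3 and shRNA A replicate 1. It was the one of 2816906 on GFP shRNA replicate 2, shRNA A replicate 3 and shRNA B replicate 1. The ACTB probe sets fell in 3 separate runs of numbers, and neither of these 2 was in the run of 9. Their mean differences were 0.15 in the run of 2 that held 2457901, 0.015 in another run of 2, and 0.03 in the run of 9. Those of PFN1 fell in 2 runs, at -0.06 and -0.05. The PFN1 difference of -0.16 came from the middle pair of its 10 probe sets, 3742409 at -0.31 and 3742408, whose group means were both 11.62, and the median of the 10 differences was -0.03. PFN2 had 5 lower and 4 higher (-0.22 to 0.11), CFL1 5 and 2 (-0.31 to 0.01), CFL2 4 and 10 (-0.05 to 0.26), and DSTN 8 and 3 (-0.18 to 0.12).

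**Figure D3:**
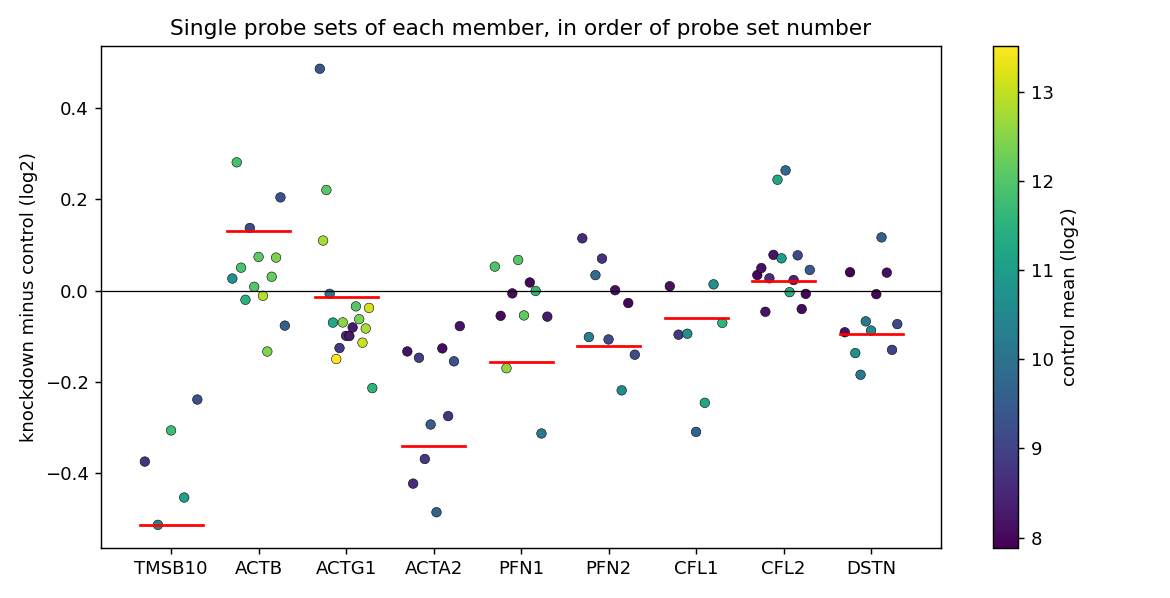
Knockdown minus control difference (log2, vertical axis) of each of the 96 used probe sets, by member and in the order of their numbers; colour gives the control mean (log2) and the red line the difference of the gene value. The TMSB10 and ACTA2 points all lie below 0, and the first 3 of ACTG1 lie above its other 14.

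Exon usage was compared through the splicing index, the level of a probe set relative to its gene on each array, in log2. It is 0 by construction for TMSB10 probe set 2491292. For PFN1 probe sets 3742408 and 3742409 it takes mirrored values by construction, since their midpoint is the gene value. For shRNA B against shRNA A none of the 96 passed by limma, with a smallest adjusted p of 0.905, and 2 (2.08%) had an unadjusted p under 0.05, where 5.43% of all probe sets did. For the GFP shRNA against the empty vector none passed and 2 had an unadjusted p under 0.05, where 4.48% did. Knockdown against control, the contrast that chose the members, is only described. There none of the 96 passed by limma and 22 of the 96 had an unadjusted p under 0.05. Of all 220978 probe sets 7 passed and 26000 had such a p. The 22 include both mirrored PFN1 probe sets, at 0.16 and -0.16, and nothing is read from the members' share. The smallest adjusted p of a member was 0.0775, for ACTB probe set 3036933 at -0.26. By plain difference, all 5 TMSB10 probe sets were lower with shRNA B than with shRNA A, by -0.36 to -0.15, and 3 of them without overlap. Over the members 58 of 96 were lower in that contrast, where 51.8% of all were, 9 of them without overlap, and 6 were higher without overlap, where 5.31% and 5.09% of all were.

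Over the 11 arrays, the genes whose centred values lay closest to those of TMSB10 were SLC25A1, ECI1 and HMG20B. Their root mean square distances were 0.138, 0.143 and 0.143, where the median gene was at 0.300, and their knockdown minus control differences were -0.46, -0.40 and -0.38. SLC25A1 carries citrate out of mitochondria and ECI1 is an enzyme of fatty acid oxidation. For ACTA2 the closest were CPSF1, a subunit of the mRNA cleavage and polyadenylation complex, RPLP0, a ribosomal stalk protein, and CD99, a surface protein. They lay at 0.0649, 0.0754 and 0.0764, where the median gene was at 0.195, with differences of -0.26, -0.27 and -0.29. A distance over 11 arrays of 4 constructs is a description of likeness only.

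Other actin genes were read from lists of pathway members. Of 95 measured genes on 5 lists, none passed for knockdown against control by limma, where 0.228% of all genes did, and 16 had an unadjusted p under 0.05, where 15.2% did. Their means were lower in 69 of 95, where 67.3% of all genes were, and the median difference was -0.04 against -0.02 over all genes. Of the family's other actins, thymosins and profilins 4 of 11 were measured, 2 lower, none at an unadjusted p under 0.05, with ACTG2 at 0.13 and ACTA1 at 0.08 as the largest differences. Of the capping, severing and monomer-binding genes and their regulators 24 of 26 were measured, 15 lower, with a median of -0.01 and 1 at an unadjusted p under 0.05. The largest differences there were TWF2, a twinfilin that binds monomers, at -0.23 ± 0.060 (SE; limma adjusted p = 0.0939), and COTL1 at -0.16.

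Nucleation genes, those of the Arp2/3 complex, its activators and the formins, had a lower mean in 22 of 26 measured, with a median of -0.06 and 7 at an unadjusted p under 0.05, where 15.2% of all genes had such a p and 67.3% a lower mean. SPIRE2, a nucleator, was at -0.19 and ARPC2, an Arp2/3 subunit, at -0.11. Genes for filament crosslinkers, tropomyosins, myosins and membrane links were lower in 21 of 25, with a median of -0.06 and 6 at an unadjusted p under 0.05, beside the same 15.2% and 67.3% of all genes. EZR, which ties filaments to the membrane, and FSCN1, which bundles them, were both at -0.22. Serum response factor, its cofactors and their targets were lower in 13 of 22, with a median of -0.04 and 3 at an unadjusted p under 0.05, ACTN1 at -0.16 and SRF at -0.14.

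**Figure D4:**
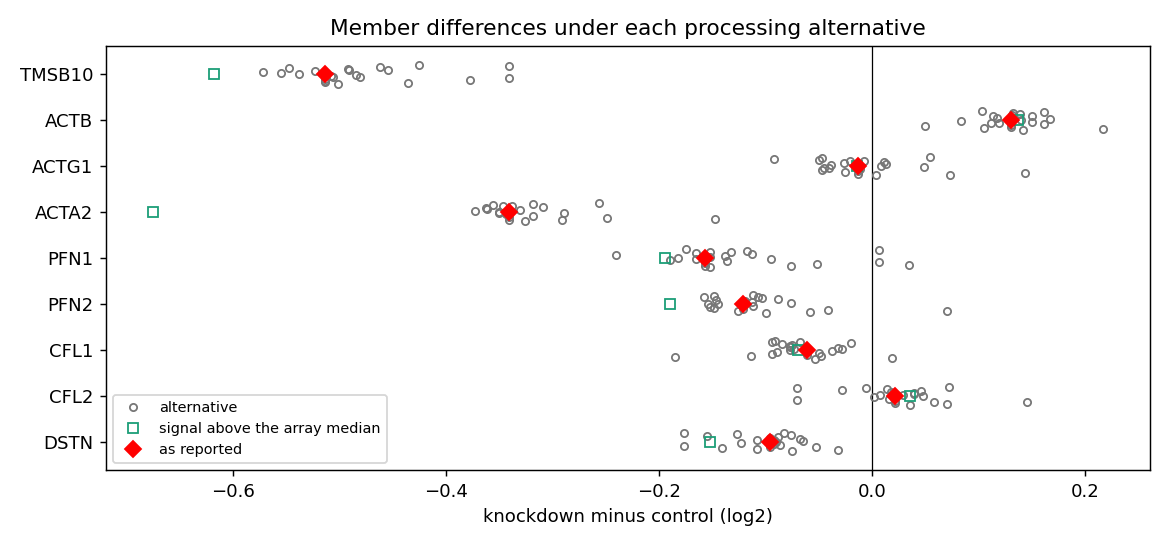
Knockdown minus control difference (log2, horizontal axis) of the 9 members under the reported processing and 23 other settings; red diamonds are the reported values, circles the alternatives and green squares signal counted above the array median. TMSB10 and ACTA2 are below 0 under every setting, ACTB is above 0 under every setting, and ACTG1 lies on both sides.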

How the data were processed

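The authors deposited 1 table of log2 values of 1399022 exon probe sets on 11 arrays. Their software, normalization and genome build: not given in the sources used here. Probe sets were named through a table of gene symbols. Those with 1 symbol, an estimate on all arrays and a mean of at least 7.91 (the table's median) were used, 220978 in all, and a gene needed 4. Differences were fitted with limma 3.58.1 (lmFit, eBayes with a trend) in R 4.3.3 with version 1.17.8 of data.table: control against knockdown as 2 levels, other contrasts as 4. P-values were adjusted by Benjamini-Hochberg over all genes or probe sets, with 0.05 as the threshold, and the fit was tested on simulated data. Fold changes on this scale may understate those of dim genes, and the number of arrays limits precision. All members were named, with the 3 nearest genes by pattern for TMSB10 and ACTA2. Genes of each list that passed were named, or else the 2 with the largest differences. Of the probe sets the extreme ones were named, and some others to show a pattern. The members and lists were chosen with earlier results of these data known.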

Additional observations from a re-analysis of the deposited data

Results flagged for a closer look

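A gap test for a lone array picked out 4 values among 54 groups of arrays examined, where chance alone gives about 1 in 20 in groups not picked by their values. The groups were the control or the knockdown arrays, for each gene value and for each member's probe sets of largest and smallest difference. A lone array can itself make a probe set extreme, and each group mixes constructs, so that rate need not hold here. The DSTN gene value of shRNA B replicate 2 was 9.33, where the other 5 knockdown arrays lay between 8.89 and 9.04. That value was the one of probe set 3878053. As the mean of the DSTN probe sets the array was at 9.13, the lowest of the knockdown arrays, where the others lay between 9.14 and 9.22. In ACTB probe set 2457901, shRNA A replicate 3 was at 12.44 and the other knockdown arrays at 11.99 to 12.13. In PFN1 probe set 3742409, empty vector replicate 2 was at 10.56 and the other controls at 10.05 to 10.14. In DSTN probe set 3878050, the same array was at 9.35 and the other controls at 9.59 to 9.66.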

How the results depend on the processing

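For knockdown against control, 2 members passed in the reported fit. The count was 1 after quantile normalization, with the floor raised by 0.5 and without the trend. It was 0 after cyclic loess, with no filter on dim probe sets, with the suffix as a block, with the GFP shRNA as the only control and, in alternatives added after seeing the data, without the suffixed arrays and without both ends of the first component. It was 0 to 1 with each array left out, which left TMSB10 at -0.57 to -0.45 and ACTA2 at -0.37 to -0.29. It was 2 with the mean of probe sets and with signal above the array median. With the replicate number as a block it was 0; the correlation of same-numbered arrays was over 0.1 in 5 of 15 pairs (-0.15 to 0.27), not in all, so the numbers were not taken to pair the arrays. TMSB10 kept a lower mean in all 23 settings (-0.62 to -0.34, adjusted p 0.00604 to 0.518, under 0.05 in 4), as did ACTA2 (-0.67 to -0.15, adjusted p 0.0266 to 0.447, under 0.05 in 5). The list count of 0 became 1 with the higher floor (TWF2), with the mean of probe sets (CORO1B) and without empty vector replicate 2 (FSCN1), so 0 to 1 with each array left out. Counts for the other contrasts and the splicing index were 0 under every alternative run. The causes were not tested.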
